A study of Mus musculus with 35 samples.

Results

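The 9 genes Ptprc, Itgam, Itgal, Itgax, Itgb2, Itga4, Itgb7, Selplg and Icam1 were followed in mouse skin wounds. They were found by exact gene symbol, 9 of 22830 symbols in the counts, and where a symbol had several RefSeq rows the row with the largest total was taken. Ptprc encodes CD45, the phosphatase carried by nearly all white blood cells. The 6 integrin genes encode subunits that pair on the leukocyte surface, Selplg encodes the selectin ligand PSGL-1, and Icam1 encodes a ligand of the beta 2 integrins.

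The study made skin wounds in WT mice, which were Cre-negative Col5a1 fl/fl littermates, and in Col5a1CKO mice, which were Col1a2CreERT: Col5a1 fl/fl. Both genotypes carried the floxed alleles on a C57BL/6 background, both sexes were used at the age of young adults, and both received tamoxifen around the time of wounding. The Cre is driven by Col1a2 in fibroblasts, so that the deletion is limited to that lineage and reaches only part of the cells in a biopsy. Bulk RNA came from a punch biopsy of the wound or scar. One set of counts covers 14 control wounds of day 14 (7 of each genotype), 3 Col5a1CKO wounds of the same day into which WT fibroblasts were injected intradermally, and 6 wounds of day 19 (3 of each genotype). The labels call the day 14 controls wounded and name no injection, while the study describes them as vehicle groups, PBS without cells. A second set, from other libraries, held 4 WT and 4 Col5a1CKO wounds of vehicle-treated mice and 4 Col5a1CKO wounds of mice given cilengitide, a small-molecule inhibitor of the integrin alpha v beta 3, all at day 14. None of the 9 genes encodes a subunit of alpha v beta 3. The characteristics of the 3 Col5a1CKO day 19 samples also name WT fibroblasts, whereas the titles give fibroblasts only at day 14, and the titles were followed. The study describes its replicates as biologically separate and its controls as littermates, and the labels do not tie wounds to litters.

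White blood cells leave the blood in steps. They roll on selectins through PSGL-1, are activated by chemokines, and then arrest and crawl when their integrins bind ICAM-1 and VCAM-1 on the endothelium. The beta 2 subunit (Itgb2, CD18) pairs with alpha L (Itgal, CD11a) to form LFA-1, with alpha M (Itgam, CD11b) to form Mac-1 on neutrophils, monocytes and macrophages, and with alpha X (Itgax, CD11c) to form a receptor of dendritic cells and some macrophages. Alpha 4 (Itga4) and beta 7 (Itgb7) form the receptor that homes lymphocytes to the gut, and alpha 4 also pairs with beta 1 to bind VCAM-1. Inherited loss of CD18 causes leukocyte adhesion deficiency, in which neutrophils fail to reach the tissue and wounds heal poorly.

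Itgam and Itgax are neighbours, and they are shown in sequence because the wounds set them apart. In NCBI37/mm9 with the GENCODE M1 annotation, Itgam lies at chr7:135206154-135271674 and Itgax at chr7:135273061-135294171, both on the plus strand and 1386 bases apart. Itgal lies on the same chromosome at chr7:134439774-134478651. The 250 bases before each transcription start come from RefSeq on GRCm38.p6, at chr7:128062390-128062639 for Itgam and chr7:128129300-128129549 for Itgax, plus strand, 5′ to 3′. Capitals mark GAGGAA, the core bound by the myeloid factor PU.1, or its complement on the other strand, and TGANTCA, the AP-1 motif.
Itgam: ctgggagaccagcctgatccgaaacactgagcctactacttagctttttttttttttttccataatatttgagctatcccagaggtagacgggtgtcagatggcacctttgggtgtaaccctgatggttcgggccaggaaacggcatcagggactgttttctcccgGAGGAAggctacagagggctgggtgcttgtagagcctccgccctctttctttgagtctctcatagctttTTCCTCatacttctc
Itgax: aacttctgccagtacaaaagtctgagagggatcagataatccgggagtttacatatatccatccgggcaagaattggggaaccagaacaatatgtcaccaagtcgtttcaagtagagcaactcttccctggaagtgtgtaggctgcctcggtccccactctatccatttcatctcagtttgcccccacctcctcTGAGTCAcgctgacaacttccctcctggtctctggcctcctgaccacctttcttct
GAGGAA stood in the Itgam window once on each strand, at bases -84 to -79 and -15 to -10 from the start, and not in the Itgax window, which held 1 AP-1 motif at -56 to -50. Of 32851 RefSeq promoter windows of 250 bases, 23.3% held GAGGAA and 6.75% held TGANTCA on either strand, and these matches are a description of letters only. RefSeq windows were found for 6 of the 9 genes, and none for Itgal, Itgb2 and Selplg. GAGGAA was also absent from the windows of Itga4, Icam1 and Itgb7. It stood once in a window of Ptprc and not in another.

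Total counts ran from 15043531 to 35700337 per wound in the first table and from 51211600 to 68266760 in the second. In the first table, the difference between GC-rich and GC-poor genes split the libraries into a pair of sets, separated by 1.54 in log2 units where the next widest gap was 0.39. The lower set held 4 WT and 5 Col5a1CKO wounds of day 14, and the upper set all others (3 WT and 2 Col5a1CKO of day 14, the fibroblast wounds and all of day 19). The second table had no such split (widest gap 0.22). Ptprc (41.9% GC) and Itga4 (41.3%) are GC-poor, while the other 7 genes ran from 50.8% in Itgam to 58.0% in Itgb7, and ratios to Ptprc are therefore also given within each library set. Sex also differed. All 3 WT wounds of the upper set at day 14 had Y-linked RNA, while the 2 Col5a1CKO and 3 fibroblast wounds had Xist. In the lower set, 4 of 5 Col5a1CKO and 2 of 4 WT wounds had Y-linked RNA. At day 19, all 3 Col5a1CKO wounds had Xist, against 2 of 3 WT wounds. Of the 4 Col5a1CKO vehicle libraries of the second table, 3 had Y-linked RNA and 1 had neither. The other groups of that table had Y-linked RNA in 2 of 4. RNA of Col5a1, the targeted gene, was lower in Col5a1CKO than in WT by 1.43 ± 0.49 (log2, SE) at day 14, by 1.69 ± 0.87 at day 19 and by 1.17 ± 0.76 in the vehicle groups, with adjusted p-values of 0.0756, 0.272 and 0.232 in edgeR's quasi-likelihood test, and the groups overlapped each time.

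Levels below are CPM, library-scaled counts after TMM normalization over all wounds of a table, and are compared between wounds of 1 gene. Fold changes are log2 values ± SE from edgeR's quasi-likelihood test within the groups compared. A gene was called changed when its Benjamini-Hochberg adjusted p over all genes tested was under 0.05 and it differed at least 2-fold. In bulk RNA, fewer leukocytes and less of a transcript per leukocyte cannot be told apart.

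At day 14, 7 of the 9 genes were higher in Col5a1CKO than in WT wounds, against 5.57% of all genes tested that were called higher. CD45, the 2 myeloid integrin chains Itgam and Itgb2, Itgal, Selplg, Icam1 and Itga4 rose, and Itgax and Itgb7 did not pass. The median log2 fold change of the 9 was 1.92, beside -0.03 over all genes tested.

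Ptprc was 29.0, 84.1 and 126 CPM (lowest, median and highest) in WT wounds and 139, 265 and 772 in Col5a1CKO wounds. The highest WT wound was under the lowest Col5a1CKO wound, and the difference was 2.14 ± 0.45 (adjusted p = 0.0104). Itgam moved by more than Ptprc in size, from 25.8, 41.0 and 91.0 CPM to 131, 306 and 679, again without overlap, a difference of 2.55 ± 0.43 (adjusted p = 0.00515). Groups without overlap and higher in Col5a1CKO were seen in 2.31% of all genes tested. Itgb2, the shared beta chain, went from 23.8, 47.9 and 84.9 CPM to 71.6, 149 and 346, with ranges that overlapped, and rose by 1.92 ± 0.40 (adjusted p = 0.0104).

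The LFA-1 chain Itgal was 9.90, 17.7 and 19.9 CPM in WT and 12.3, 56.8 and 161 in Col5a1CKO wounds, so that the lowest Col5a1CKO wounds lay inside the WT range while the median was above it. It rose by 2.09 ± 0.49 (adjusted p = 0.0172). Itgax, the dendritic cell and macrophage chain, was 13.6, 24.5 and 30.9 CPM in WT and 8.85, 42.7 and 52.1 in Col5a1CKO wounds. Its lowest value of all 14 wounds was in a Col5a1CKO wound, and its difference of 0.59 ± 0.37 did not pass (adjusted p = 0.318).

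Itga4 rose by 1.47 ± 0.40 (adjusted p = 0.0308), from 4.998, 10.4 and 33.9 CPM to 21.0, 32.8 and 53.1, and 1 WT wound at 33.9 stood above the Col5a1CKO median. Itgb7 went from 3.96, 10.4 and 18.8 CPM to 6.88, 25.3 and 46.9, a difference of 1.11 ± 0.47 that did not pass (adjusted p = 0.144). Selplg rose by 2.09 ± 0.57 (adjusted p = 0.0312), from 13.3, 22 and 37.3 CPM to 20.04, 71.1 and 329.976, where the highest Col5a1CKO wound was far from the next at 87.3. Icam1, which is made by endothelium, epithelium and leukocytes alike, rose by 1.32 ± 0.38 (adjusted p = 0.0370), from 7.71, 26.7 and 31.6 CPM to 19.7, 71.3 and 90.7.

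**Figure D1:**
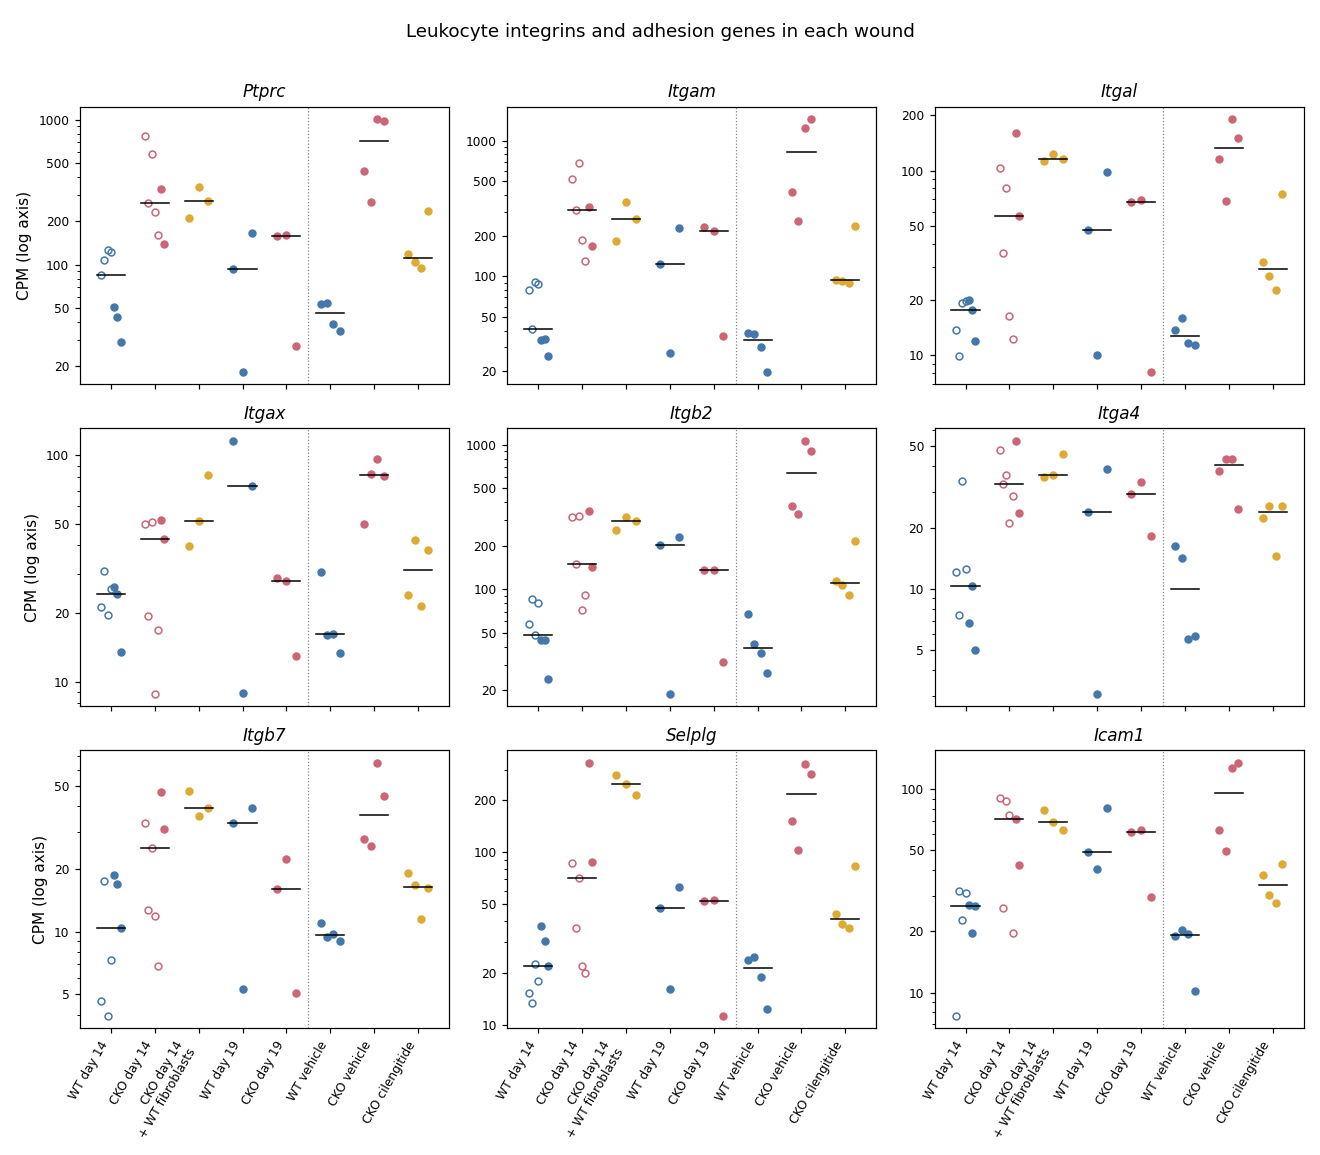
CPM of the 9 genes (log axis) in each wound of the 8 groups, with points for wounds, black bars for medians, open circles for the lower library set and a dotted line between the 2 tables, whose CPM were scaled apart. Ptprc and Itgam were higher in every Col5a1CKO wound than in any WT wound at day 14 and in the vehicle groups, and the Itgax ranges overlapped at day 14 but not in the vehicle groups.

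The modelled difference kept its sign for all 9 genes within each library set, with fewer calls. Within the lower set, 2 of 9 were called, Ptprc (1.87, adjusted p = 0.0355) and Itgam (2.28, adjusted p = 0.0282), beside 532 genes higher and 423 lower of 14472. Itgax differed by 0.25 there (adjusted p = 0.783), while its median was lower in Col5a1CKO, 19.5 CPM against 23.5 in WT. Within the upper set, with 3 WT and 2 Col5a1CKO wounds, 5 of 9 were called, beside 1348 genes higher and 63 lower of 15296. Itgam again had the largest value, 3.05 (adjusted p = 0.0370). The count over both sets fell to 4 when the Col5a1CKO wound a, the Col5a1CKO wound f or the WT wound g was left out. All genes called higher were then 494, 499 and 596, where all wounds gave 800.

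Marker sums of some other cells moved with the same contrast and those of others did not. The part of these cells in it was not tested. The summed level of 5 of 5 keratinocyte markers was 32195, 35528 and 158476 CPM in WT and 33.2, 791 and 60987 in Col5a1CKO wounds. The 7 macrophage and monocyte markers summed to 682 to 1020 CPM (median 727) in WT, under the Col5a1CKO sums of 1062 to 2405 (median 1868), and 6 of 7 neutrophil markers to 1145 to 8987 and 1693 to 20968. The 5 dendritic cell markers summed to 9.18 to 22.1 CPM for WT, against 14.1 to 70.7 for Col5a1CKO. The 4 endothelial markers summed to 34.0 to 142 CPM (median 97.1) in WT and 132 to 288 (median 235) in Col5a1CKO. The 6 T cell markers summed to 0.807 to 75.8 CPM (median 31.1) in WT and 15.0 to 72.2 (median 26.6) in Col5a1CKO. The 4 mast cell markers had a median sum of 58.2 CPM in WT and 48.9 in Col5a1CKO. The 3 B cell and 2 NK cell markers stayed at or under 5.67 CPM in every wound.

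With WT fibroblasts, 8 of the 9 genes were called higher than in WT wounds, Itga4 being the exception. None of the 9 was called against Col5a1CKO controls, where 0% of all genes were called, and Selplg alone differed by over 2-fold (1.41 ± 0.75, adjusted p = 0.428). At an unadjusted p under 0.05 the count was also 0 of 9, beside 201 genes higher and 1800 lower of 15659, and DESeq2 called 0 of 9. Of all genes, 0.326% were higher and 1.76% lower in every fibroblast wound than in every Col5a1CKO control. Against WT wounds the 8 calls were all higher, beside 3.77% of all genes higher and 2.06% lower. Both comparisons share 1 group each with the comparison above.

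In the 3 fibroblast wounds, Ptprc was 209, 345 and 272 CPM, all above the WT maximum, and 1.91 ± 0.43 higher than WT (adjusted p = 0.0227). Of all genes tested, 9.92% were likewise higher in every fibroblast wound than in every WT wound, and 10.3% lower. Itgam was 182, 351 and 264 CPM and 2.37 ± 0.42 higher (adjusted p = 0.00731). Itgax was 39.9, 51.3 and 82.3 CPM, also all above the WT range, and was called here (1.47 ± 0.31, adjusted p = 0.0161). The 2 genes that differed most from WT were Selplg, with 281, 251 and 214 CPM (3.60 ± 0.30, adjusted p = 0.000191), and Itgal, with 112, 123 and 116 CPM (3.02 ± 0.25, adjusted p = 0.000191). Itga4 was 35.3, 36.4 and 46.0 CPM, above every WT wound, and its 1.78 ± 0.51 missed the threshold (adjusted p = 0.0642).

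All 3 fibroblast wounds belong to the upper library set. Against the 3 WT wounds of that set all 9 genes were called, from 1.56 in Itgb7 (adjusted p = 0.00232) to 3.22 in Itgam (adjusted p = 0.000335), with Selplg at 3.20. Of all 15132 genes tested in that fit, 2999 were called higher and 1691 lower. Against the 2 Col5a1CKO wounds of that set the 9 differences lay between 0.09 in Itga4 and 0.37 in Icam1, with Ptprc at 0.27 and Itgam at 0.17 where all wounds gave -0.37 and -0.32. Leaving out 1 fibroblast wound lowered the count against WT to 5 without a and to 4 without b or without c. All genes called higher fell from 578 to 255, 268 and 207 in turn. The keratinocyte marker sum was 12514 to 30145 CPM in these wounds, under every WT wound and inside the Col5a1CKO range.

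At day 19 none of the 9 genes was called between the genotypes, beside 0.0198% of all genes higher and 0% lower. The spread was wide, and WT wound b and Col5a1CKO wound c had the lowest value of their group in all 9 genes. Ptprc was 92.8, 18.2 and 164 CPM in WT and 157, 161 and 27.5 in Col5a1CKO wounds, a difference of 0.36 ± 0.95 (adjusted p = 0.832). Itgam was 124, 27.2 and 227 CPM and 233, 215 and 36.7, a difference of 0.39 ± 0.95 (adjusted p = 0.816). With these errors a difference of the size seen at day 14 could not be told from none. No member had an unadjusted p under 0.05, beside 1786 genes higher and 1866 lower of 15135, and DESeq2 called 0. The genotypes overlapped in all 9 genes, while 16.4% of all genes had the 3 Col5a1CKO wounds above the 3 WT wounds and 18.5% had them below.

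Itgax had the largest difference at day 19, lower in Col5a1CKO by 1.47 ± 0.89 (adjusted p = 0.329), with 116, 8.93 and 73.3 CPM in WT and 28.8, 27.8 and 13.0 in Col5a1CKO wounds. Icam1 varied least, with 49.1, 40.4 and 80.7 CPM in WT and 61.8, 62.7 and 29.5 in Col5a1CKO, a difference of -0.09 ± 0.42. The other 5 differed by -0.80 (Itgb7) to 0.33 (Itga4).

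The genotype difference at day 19 was below that at day 14 in all 9 genes, by 1.16 ± 0.84 (Itga4) to 2.47 ± 0.91 (Itgb2) on the log2 scale, and none passed the interaction test (adjusted p from 0.712 to 0.983, beside 0% of all genes). Of the 9, 6 had an unadjusted p under 0.05, the smallest 0.0137 for Itgb2, beside 448 genes higher and 491 lower of 15954. Within WT, all 9 were higher at day 19 than at day 14 and none was called, beside 1.50% of all genes called higher and 4.25% lower. Itgal rose most in size, by 1.79 ± 0.52 (adjusted p = 0.0637), then Itgax by 1.59 ± 0.54 (adjusted p = 0.106), and 3 were called without the low WT wound b of day 19. Within Col5a1CKO, all 9 were lower at day 19, by 0.21 ± 0.48 (Icam1) to 1.63 ± 0.69 (Ptprc, adjusted p = 0.157), and none was called, beside 3.85% of all genes called lower. All day 19 wounds are of the upper library set, so day and set differ together unless the day 14 wounds of that set alone are used. Against the 3 WT day 14 wounds of that set, Itgb2 and Itgam had the largest differences, 2.18 ± 0.89 (adjusted p = 0.0998) and 2.17 ± 0.74 (adjusted p = 0.0639), ahead of Itgal, 1.84 ± 0.80, and Icam1 was called (1.37 ± 0.34, adjusted p = 0.0266). Against the 2 Col5a1CKO day 14 wounds of that set, Selplg was lowest, -2.40 ± 0.91 (adjusted p = 0.209), with Ptprc at -1.003 ± 0.86 and none of the 9 called.

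In the second table, every one of the 9 genes was higher in Col5a1CKO vehicle than in WT vehicle wounds, with all 4 wounds of 1 group above all 4 of the other. This table had wide differences throughout, with 17.5% of all genes called higher and 13.4% lower, and with 24.1% and 25.1% whose groups did not overlap in these directions. The order ran from the Mac-1 chains and CD45 at the top to Itga4, Itgax and Itgb7 at the bottom, with a median of 3.27 over the 9 beside 0.02 over all genes tested. The 9 remained called without any 1 of the 8 wounds.

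Itgam was 38.4, 37.7, 30.4 and 19.9 CPM in WT vehicle and 419, 258, 1231 and 1439 in Col5a1CKO vehicle wounds, a 25.5-fold difference (4.67 ± 0.64 on the log2 scale, adjusted p = 0.0014). Itgb2 went from 67.7, 41.9, 36.0 and 26.1 CPM to 375, 329.9, 1058 and 899 (3.91 ± 0.52, adjusted p = 0.0013). Ptprc went from 53.2, 53.9, 38.7 and 34.9 CPM to 443, 270.4, 1008 and 978 (3.85 ± 0.48, adjusted p = 0.00107). In all 3 genes the Col5a1CKO wounds 3 and 4 were high and 1 and 2 lower, a spread of over 3-fold within the group.

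Selplg rose by 3.40 ± 0.43, from 23.7, 24.8, 18.8 and 12.3 CPM to 153, 104, 327 and 285, and Itgal by 3.27 ± 0.32, from 13.7, 15.8, 11.6 and 11.3 CPM to 115, 68.2, 189.8 and 149. Icam1 rose by 2.39 ± 0.39, from 19.1, 20.4, 19.4 and 10.2 CPM to 62.9, 49.8, 128 and 134. These 3 genes were 5.25-fold (Icam1) to 10.6-fold (Selplg) higher. The remaining 3 rose 3.46-fold to 4.01-fold. Itgax went from 30.6, 16.1, 16.2 and 13.3 CPM to 49.997, 83.0, 96.5 and 81.1, Itgb7 from 11.1, 9.43, 9.80 and 9.05 CPM to 27.9, 25.7, 64.6 and 44.8, and Itga4 from 16.2, 14.2, 5.66 and 5.85 CPM to 38.0, 43.5, 43.2 and 24.6. In contrast to the Mac-1 chains, Itgax and Itga4 were not highest in wounds 3 and 4 together.

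In cilengitide wounds 8 of the 9 genes were lower than in Col5a1CKO vehicle wounds and 0 higher, beside 6.59% of all genes called lower and 6.48% higher. The wounds stayed above WT vehicle for CD45, Itgam, Itgb2, Itgal, Selplg and Icam1. The 2 comparisons share the cilengitide wounds with each other, and each shares a vehicle group with the comparison above.

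Itgam was 94.6, 92.5, 90.0 and 234 CPM in cilengitide wounds, under all Col5a1CKO vehicle wounds by 2.71 ± 0.64 (adjusted p = 0.0218), and Itgb2 was 114, 107, 90.8 and 214, lower by 2.33 ± 0.48 (adjusted p = 0.0144). Ptprc was 119, 104, 95.1 and 234 CPM, lower by 2.29 ± 0.51 (adjusted p = 0.0184). Groups apart in this direction were seen in 13.4% of all genes. In each of these 3 genes wound 4 was far above the other 3 cilengitide wounds. Selplg was 43.7, 38.4, 36.5 and 82.9 CPM (-2.10 ± 0.44, adjusted p = 0.0152), and Itgal 31.8, 26.9, 22.4 and 74.2 (-1.74 ± 0.46, adjusted p = 0.0305), where wound 4 was above the lowest vehicle wound.

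Icam1 was 37.7, 30.1, 27.5 and 42.9 CPM, lower by 1.43 ± 0.35 (adjusted p = 0.0243). Itgb7 was 19.2, 16.8, 11.5 and 16.2 CPM (-1.35 ± 0.32, adjusted p = 0.0221), and Itgax 24.1, 42.1, 21.6 and 38.1 (-1.29 ± 0.28, adjusted p = 0.0171). Itga4, at 22.2, 25.4, 14.5 and 25.4 CPM, overlapped the vehicle wounds and was the member that missed the threshold (-0.76 ± 0.24, adjusted p = 0.0508).

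Against WT vehicle, 6 of 9 were called higher in cilengitide wounds, beside 5.15% of all genes. The values ran from Itgam, 2.01 ± 0.37 (adjusted p = 0.0195), over Ptprc, 1.61 ± 0.31, Itgb2, 1.61 ± 0.36, Itgal, 1.56 ± 0.37, and Selplg, 1.34 ± 0.32, to Icam1, 1.002 ± 0.24 (adjusted p = 0.0278). Itgb7 did not overlap, as in 14.5% of all genes in this direction, and differed by less than 2-fold (0.70 ± 0.16, adjusted p = 0.0279), while Itgax (0.72 ± 0.31, adjusted p = 0.122) and Itga4 (1.06 ± 0.38, adjusted p = 0.0804) overlapped WT.

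The 2 counts changed with the wounds used. Among libraries with Y-linked RNA, 2 to 3 a group, no member was called in either cilengitide comparison, with Ptprc at -2.11 (adjusted p = 0.123) against Col5a1CKO vehicle and 2.00 (adjusted p = 0.321) against WT vehicle, whereas 8 of 9 were still called between the vehicle groups. In fits of these libraries, 45 of 15895 genes were called higher and 2 lower against Col5a1CKO vehicle, and 3 and 27 of 15687 against WT vehicle. Between the vehicle groups, 1126 and 1375 of 16019 were called. Against Col5a1CKO vehicle the member count fell to 2 without cilengitide wound 1 or 3, to 3 without cilengitide wound 2 and to 5 without vehicle wound 3. All genes called lower were then 334 and 346, 426 and 406 in turn, where all wounds gave 1025. Against WT vehicle the member count fell to 0 without cilengitide wound 2, 3 or 4 or WT wound 3, and to 2 without WT wound 4. Without cilengitide wound 2, 3 or 4, only 3, 1 and 1 of all genes were called higher and 0 lower, where all wounds gave 799 and 532. Without WT wound 3 there were 87 higher and 196 lower, and without WT wound 4 there were 287 and 268. These falls were therefore not particular to the members. The keratinocyte marker sum moved with treatment as well, with 62383 to 99517 CPM in WT vehicle, 62.5 to 12306 in Col5a1CKO vehicle and 34372 to 69449 in cilengitide wounds. So did 7 macrophage and monocyte markers, with 329 to 648, 1627 to 5578 and 849 to 1191 CPM. The sum of 6 of 7 neutrophil markers was 95.9 to 2201, 1551 to 44481 and 3140 to 7219 CPM in turn. Its cilengitide values lay inside the Col5a1CKO vehicle range. The part of these markers in the result was not tested.

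**Figure D2:**
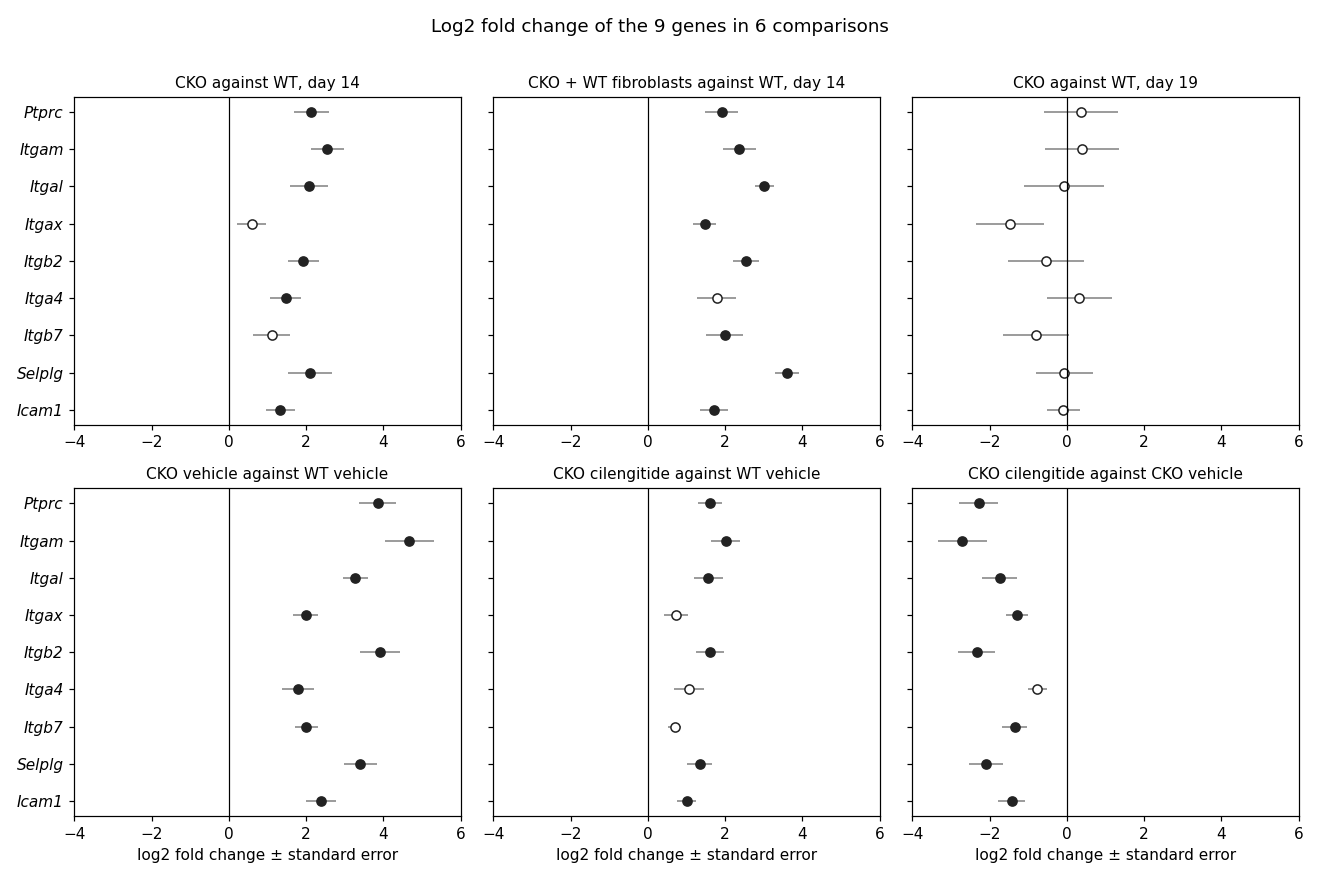
Log2 fold change of the 9 genes in 6 comparisons, with bars for the standard error, filled circles for genes called changed and open circles for the rest. Itgam lies furthest from 0 in both vehicle comparisons of the second table and Itgax, Itgb7 and Itga4 nearest, while at day 19 all 9 genes are open circles.

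Per length, the order of the genes differed between groups, whose library sets also differed. RPKM, counts per kilobase of exon and scaled to library size, were computed from the counts and exon lengths of the first table, so that levels of different genes can be set side by side. In WT wounds at day 14 the median RPKM was 11.3 for Itgb2, 10.6 for Ptprc, 6.70 for Icam1, 6.20 for Itgam, 5.58 for Selplg, 3.87 for Itgax, 2.57 for Itgb7, 2.15 for Itgal and 0.669 for Itga4. Neighbours in this order overlapped in range throughout. In Col5a1CKO wounds Itgam led with 45.9, followed by Itgb2 with 36.7 and Ptprc with 32.9, and Itga4 was last with 2.35. In fibroblast wounds Itgb2 (81.6) and Selplg (71.0) led, above Itgam (47.6) and Ptprc (40.6), all from libraries of the upper set. The day 14 medians of WT and Col5a1CKO mix both sets. In the upper-set Col5a1CKO wounds f and g, Selplg was 100 and 24.4 RPKM, Itgb2 95.5 and 36.2, Itgam 54.5 and 25.9, and Ptprc 46.4 and 18.0. In the upper-set WT wounds e, f and g, Selplg (9.03, 7.47 and 5.58) was above Ptprc (5.63, 4.86 and 3.39). The part of the library set in these orders was not tested.

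Across groups of the first table, neighbours in the order of median CPM mostly overlapped. WT day 14 was lowest for all 9 genes. For Ptprc the order was WT day 14, WT day 19, Col5a1CKO day 19, Col5a1CKO day 14 and fibroblast wounds, with each neighbour overlapping the next. Itgax alone had WT day 19 at the top (median 73.3 CPM). In the second table, WT vehicle, cilengitide and Col5a1CKO vehicle stood in this order for all 9 genes, and the 3 groups did not overlap at all for Ptprc, Itgam, Itgb2, Itgb7, Selplg and Icam1. The share of all genes with the same orders, or with all 3 groups apart, was not counted. In these directions, 14.5% of all genes were apart between cilengitide and WT vehicle, 13.4% between cilengitide and Col5a1CKO vehicle, and 24.1% between the vehicle groups.

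Counts were next divided by the Ptprc count of the same wound, so that a gene that only follows the CD45 transcript keeps its ratio. In the test, log Ptprc counts replaced library size, and a call has the same thresholds. Since Ptprc rose more than most genes, most genes fall on this scale, and each count is read against that share.

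**Figure D3:**
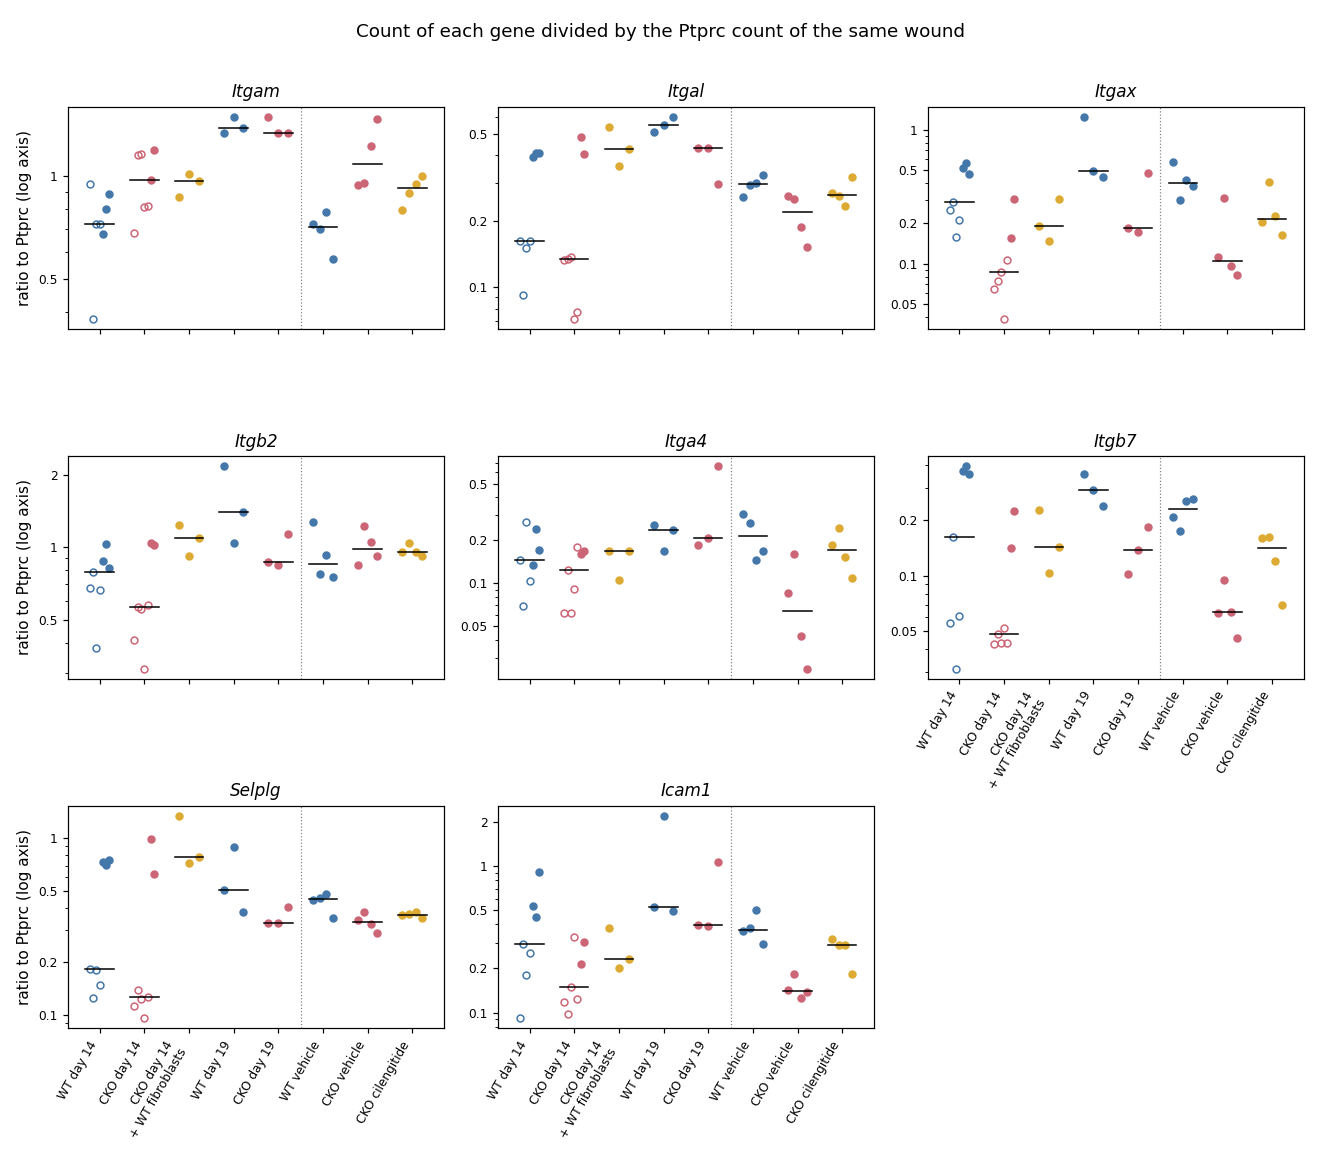
Count of each of 8 genes divided by the Ptprc count of the same wound (log axis), with points for wounds, bars for medians, open circles for the lower library set and a dotted line between the tables. Itgax lies lower in Col5a1CKO than in WT wounds in both library sets at day 14, and the ratios of Selplg and Itgal separate by library set.

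Between the day 14 genotypes, Itgax was the only one of 8 called, lower by 1.56 ± 0.51 (adjusted p = 0.0119), where 70.7% of all genes were called lower and 0.244% higher. Within the lower set its ratio was 0.157 to 0.288 for WT, against 0.0387 to 0.106 for Col5a1CKO, without overlap, a difference of -1.62 (adjusted p = 0.0395). Within the upper set it was 0.467, 0.515 and 0.565 in WT and 0.156 and 0.306 in Col5a1CKO wounds, again apart, a difference of -1.16 (adjusted p = 0.143). On this scale 4171 of 14471 genes were called lower within the lower set and 10892 of 15295 within the upper set. Over all 14 wounds, 19.3% of all genes had groups apart and lower in Col5a1CKO, and the median gene changed by -2.10, further than Itgax. The share apart within each set was not counted. The exact 2-sided permutation test over the wounds gave p = 0.00794 in the lower set, the smallest it allows, and 0.1 in the upper set, where no smaller p can be had. Over all 14 wounds it gave 0.00466, which is 0.15 when adjusted over the 72 ratio tests made, and 2 ratios were called without Col5a1CKO wound g, WT wound a or WT wound c.

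The ratio of Itgam to Ptprc was 0.382 to 0.949 for WT, against 0.681 to 1.19 for Col5a1CKO, a difference of 0.40 ± 0.35 (adjusted p = 0.299), and Itgb2 differed by -0.23 ± 0.39. Icam1 (-1.03 ± 0.51, adjusted p = 0.0757) and Itgb7 (-1.27 ± 0.65, adjusted p = 0.0839) were lower and did not pass. Selplg differed most between library sets. Its ratio in WT was 0.124 to 0.182 in the lower and 0.706 to 0.757 in the upper set, and in Col5a1CKO 0.0956 to 0.137 and 0.626 to 0.991, so that the sets were over 3-fold apart in both genotypes. Itgal went from 0.0923 to 0.163 in the lower to 0.393 to 0.409 in the upper set of WT.

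In the vehicle groups, 4 of 8 were called lower relative to Ptprc, Itgb7 (-1.74 ± 0.50, adjusted p = 0.00275), Itgax (-1.49 ± 0.52, adjusted p = 0.0114), Itga4 (-1.49 ± 0.58, adjusted p = 0.0205) and Icam1 (-1.37 ± 0.46, adjusted p = 0.0085). Of all genes 87.8% were called lower and 0.758% higher, so a call in that direction is common in this table, and the other 4 were not called. Itgb7 was 0.208, 0.175, 0.253 and 0.259 of Ptprc in WT and 0.0630, 0.0950, 0.0641 and 0.0458 in Col5a1CKO vehicle wounds. Itgax was 0.575, 0.299, 0.419 and 0.383 and fell to 0.113, 0.0957 and 0.0830 in 3 Col5a1CKO wounds, while wound 2 kept 0.307, inside the WT range.

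Itgam ratios were 0.723, 0.700, 0.785 and 0.571 in WT and 0.944, 0.953, 1.22 and 1.47 in Col5a1CKO vehicle wounds, without overlap and higher, which held for 0.531% of all genes. The modelled difference of 0.72 ± 0.45 did not pass (adjusted p = 0.129), and the exact 2-sided permutation test over 4 against 4 wounds gave 0.0286, the smallest it allows, or 0.191 adjusted over the same 72 tests. Itgb2 kept its ratio within a narrow range in all 12 wounds of the table, 0.749 to 1.27, and differed by 0.11 ± 0.44 between the vehicle groups. Selplg (-0.38 ± 0.43) and Itgal (-0.46 ± 0.45) were not called.

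No ratio was called in cilengitide wounds, beside 74.2% of all genes higher and 0.109% lower against Col5a1CKO vehicle, and 71.8% lower and 0.819% higher against WT vehicle. At an unadjusted p under 0.05 the counts were 0 and 1 of 8 (Itgb7 against WT vehicle), beside 12008 of 15562 genes higher and 11808 of 15513 genes lower in turn, and DESeq2 called 0 in both. The 4 genes that were lower relative to Ptprc in Col5a1CKO vehicle had values of 0.74 ± 0.56 (Itgax) to 1.14 ± 0.60 (Itga4, adjusted p = 0.0766). Selplg stood at 0.368, 0.370, 0.384 and 0.354 in cilengitide wounds, the narrowest spread of the 8 genes. Relative to the summed counts of Ptprc, Cd53, Laptm5 and Coro1a, 4 genes of leukocytes, only Itgb7 was called between the vehicle groups (-1.56, adjusted p = 0.0258), with Itgax at -1.28 (adjusted p = 0.0558). Without vehicle wound 2 of Col5a1CKO 3 ratios were called higher under cilengitide, and 2 without cilengitide wound 4.

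At day 19 no ratio was called between genotypes, where 0.654% of all genes were called lower and 0.0264% higher. Itgam was 1.33, 1.49 and 1.38 of Ptprc in WT and 1.49, 1.34 and 1.33 in Col5a1CKO wounds, a difference of -0.02 with an exact 2-sided permutation p of 0.6, although Itgam in CPM varied by over 6-fold between these wounds. Itgal, at 0.511, 0.547 and 0.600 in WT and 0.431, 0.430 and 0.296 in Col5a1CKO wounds, and Itgb7, at 0.357, 0.291 and 0.240 against 0.103, 0.139 and 0.184, did not overlap, as did 1.94% of all genes in that direction, and 3 against 3 wounds cannot give an exact p under 0.1. In fibroblast wounds no ratio was called against Col5a1CKO, where 0% of all genes were called, or against WT, where 47.5% were called lower. Between days no ratio was called in Col5a1CKO, beside 44.7% of all genes higher and 0.144% lower, or in WT, beside 0%. Day and library set differ together there. Within the upper set, 0 of all 15239 genes were called between days in Col5a1CKO, with 3 and 2 wounds. For fibroblast wounds within the upper set, Itgax (-1.27, adjusted p = 0.00125), Itgb7 (-1.24, adjusted p = 0.00189) and Icam1 (-1.23, adjusted p = 0.0018) were called lower against WT, 3 of 8, beside 12899 of all 15131 genes called lower.

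The genes most like Ptprc were found by the SD of log2(gene to Ptprc) over the wounds, among genes of at least 10 mean CPM, as a description over wounds that share a library set or a genotype. Over the 23 wounds of the first table these included Trim30a (SD 0.46), Lcp1 (0.48) and Fcgr3 (0.48), where the median gene had 1.53. Itgam had rank 3 of 10559 genes (0.47), Itgb2 rank 50 (0.64) and Itga4 rank 121 (0.77). Over the 12 wounds of the second table they were Hcls1 (0.16), Rac2 (0.18), Syk (0.18), Atp8b4 (0.20) and Apobr (0.21), where the median gene had 1.73. Selplg had rank 6 of 10129 genes (0.21), Itgb2 rank 8 (0.23), Itgal rank 28 (0.31) and Itgam rank 51 (0.36). Icam1 had rank 251, Itgb7 rank 488, Itgax rank 563 and Itga4 rank 845.

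A list of 40 other genes of leukocyte adhesion was read beside the 9, of which 39 were found. At day 14, 13 of the 36 tested were higher in Col5a1CKO than WT and 0 lower, beside 5.57% of all genes higher, with a median of 1.12. The endothelial selectins led, Sele with 0, 0.125 and 1.23 CPM in WT and 1.70, 15.0 and 16.0 in Col5a1CKO (4.78 ± 1.04, adjusted p = 0.0122) and Selp with 0.125, 3.11 and 6.38 CPM and 8.83, 50.5 and 99.5 (3.77 ± 0.71, adjusted p = 0.00693). Jam2, a junction protein of endothelium, rose by 1.85 ± 0.41 and Fyb, an adapter of integrin activation, by 1.81 ± 0.38. By group, both endothelial selectins, 5 of 10 genes of integrin activation, 3 of 8 endothelial genes, 1 of 6 genes of selectin ligand synthesis, 1 of 4 other integrins and 1 of 6 other adhesion genes rose.

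Between the vehicle groups 30 of 37 of the list were higher and 0 lower, beside 17.5% of all genes. Itgb2l, a beta chain gene close in sequence to Itgb2, had 0 to 15 reads per WT wound and 38 to 240 in Col5a1CKO (4.62 ± 1.15, adjusted p = 0.013). In the first table it had 0 to 2 reads in WT at day 14. At day 19 it had 0 to 4 reads in WT, where Itgb2 had 494 to 5324. In fibroblast wounds it had 48 to 142 reads, where Itgb2 had 8131 to 11465. Whether counting split reads between the 2 genes was not tested. Between the vehicle groups Selp (3.66 ± 0.67), Cytip (3.43 ± 0.41), a regulator of LFA-1 adhesion, and Sele (3.29 ± 0.76) followed Itgb2l in size.

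Under cilengitide 15 of 37 fell against Col5a1CKO vehicle and 0 rose, beside 6.59% of all genes lower, with Itgb2l (-3.35 ± 0.88), Gcnt1 (-2.42 ± 0.62), which builds selectin ligands, Amica1 (-2.24 ± 0.56), a leukocyte junction protein, and Cytip (-2.09 ± 0.42) furthest from 0. Of the 8 endothelial ligand and junction genes 0 were called, with a median of -0.66, and Selp (-0.68) and Sele (-0.88) were not called either. Against WT vehicle 7 of 37 were higher, beside 5.15% of all genes, led by Selp (3.02 ± 0.71), Vcam1 (1.82 ± 0.53), Fyb (1.48 ± 0.31) and Cytip (1.38 ± 0.33). In fibroblast wounds 12 of 37 were higher than in WT, beside 3.77% of all genes, with Sele (5.57 ± 1.24), Selp (4.68 ± 0.76) and Rasgrp2 (2.51 ± 0.51) among the largest, and Itgb2l at 48 to 142 reads, and 0 of 37 were called against Col5a1CKO. At day 19 0 of 36 were called between genotypes. Between days, 2 of 36 were higher at day 19 in WT, beside 1.50% of all genes (Esam, 1.58 ± 0.41, and Tln1, 1.27 ± 0.33). In Col5a1CKO, 3 of 37 were lower, beside 3.85% (Gcnt1, -2.16 ± 0.50, Rap1b, -1.43 ± 0.31, and Skap2, -1.21 ± 0.30). Day and library set differ together in these calls. Within the upper set, 0 of all 15240 genes were called between days in Col5a1CKO, with 3 and 2 wounds. In WT, 2133 of 15059 were called higher and 1521 lower within that set.

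**Figure D4:**
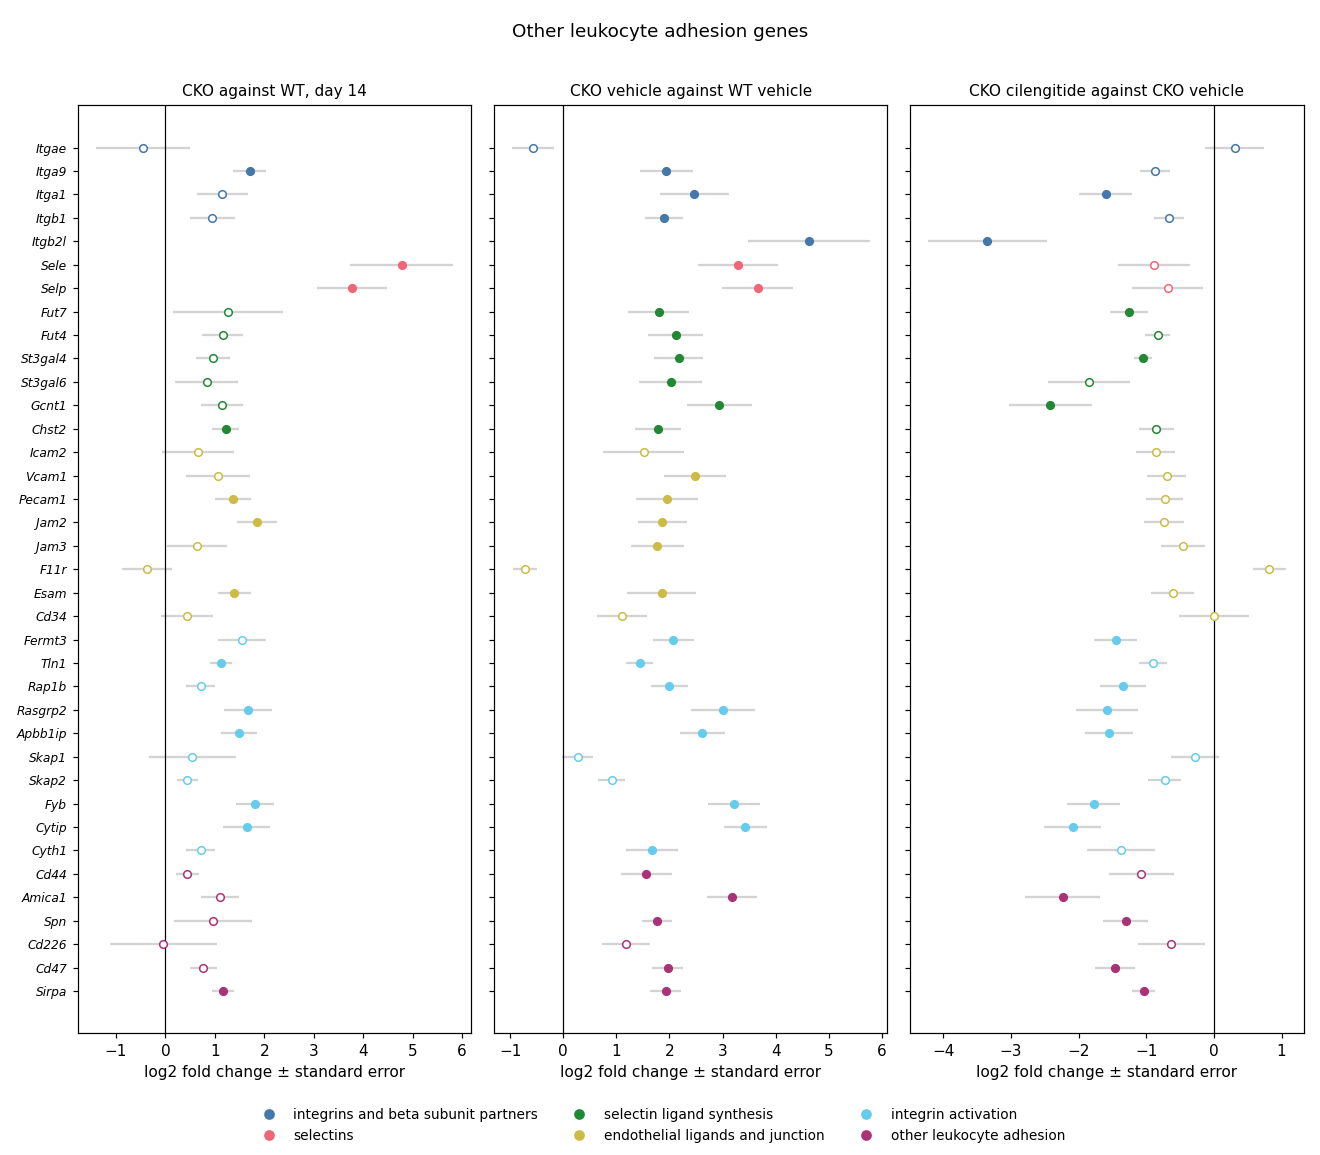
Log2 fold change ± standard error of 37 other leukocyte adhesion genes in 3 comparisons, coloured by role, with filled circles for genes called changed. Of these, 13 are filled on the higher side at day 14, 30 in the vehicle comparison and 15 on the lower side under cilengitide.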

How the data were processed

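The members and gene lists were chosen with earlier results of these data known. Punch biopsies of 35 wounds in 8 groups were sequenced as bulk RNA. The authors made stranded TruSeq libraries, aligned reads with Hisat2 to NCBI37/mm9, and deposited raw counts on exons of RefSeq genes made with SeqMonk; whether this covers the cilengitide libraries is not given in the sources used here. Totals of 15043531 to 35700337 counts (first table, 1 row per symbol) and 51211600 to 68266760 counts (second table) limit precision. Rows naming no gene (0.0492% and 5.91e-05% of counts) were left out. No per-sample column was left unmapped (0), and no comparison of the authors was used.

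Each pair of groups was fitted with edgeR 4.0.16 in R 4.3.3 (TMM, genes kept by filterByExpr at min.count 10, quasi-likelihood test with robust fitting), and p-values were Benjamini-Hochberg adjusted over all genes tested. Calls required both a 2-fold difference and adjusted p below 0.05. For ratios, log Ptprc counts of the wound were the offset. RPKM was computed from counts and exon lengths. The steps were tested on simulated data. Alternatives were DESeq2 1.42.0 and its size factors, library size alone, no count filter, a 3-fold rule, all groups in one fit, the longest RefSeq row, each replicate left out, a replicate block, the library set as covariate or within sets, and a panel of leukocyte genes as reference. Exact permutation tests of the ratios and fits of libraries with Y-linked RNA only were chosen after seeing the data. Python 3.11.15, numpy 2.4.6, pandas 2.3.3, scipy 1.17.1 and matplotlib 3.10.9 were used. Named beside the 9 members are Col5a1, the called genes of the adhesion list with the largest fold change (up to 4 per direction and comparison) and the 5 genes most like Ptprc per table (at least 10 mean CPM); some genes that meet this rule are not reported here, and the adhesion list and its counts leave them out.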

Additional observations from a re-analysis of the deposited data

Results flagged for a closer look

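Of 85 groups of values tested for a wound far from the others by Dixon's criterion, 8 had one, and chance gives about 1 in 20. Cilengitide wound 4 stood apart in 3 genes, with Ptprc at 233.9 CPM where the others had 95.1 to 119, Itgam at 233.6 CPM against 90.0 to 94.6, and Selplg at 82.9 CPM against 36.5 to 43.7. Itgax was 30.6 CPM in WT vehicle wound 1 and 13.3 to 16.2 in the other 3, and Icam1 was 10.2 CPM in WT vehicle wound 4 and 19.1 to 20.4 in the others. Relative to Ptprc, Itgax was 0.307 in Col5a1CKO vehicle wound 2 and 0.0830 to 0.113 in the others. At day 14, Itga4 was 33.9 CPM in WT wound c and 4.998 to 12.5 in the other 6, and Selplg was 329.976 CPM in Col5a1CKO wound f and 20.04 to 87.3 in the others.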

How the results depend on the processing

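Of the member values under settings other than leaving out a wound, 701 levels and 615 ratios kept their direction and side of the threshold, and 5 levels and 33 ratios turned sign; the cause was not tested. Calls across 3 wounds a group are limited by that number. Within the lower library set the comparisons with fibroblasts, of days and of day 19 could not be fitted.

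Member calls changed as follows. At day 14, 7 members became 2 within the lower set, beside 532 genes higher and 423 lower of 14472. For cilengitide against Col5a1CKO vehicle, 8 became 5 at 3-fold and 0 with Y-linked RNA libraries. Against WT vehicle, 6 became 1 with all groups in one fit, 3 at 3-fold and 0 with Y-linked RNA libraries. Of all genes, the Y-linked RNA libraries gave 45 higher and 2 lower against Col5a1CKO vehicle, and 3 and 27 against WT vehicle. For WT between days, 0 became 3 with DESeq2, 2 with all groups in one fit, 1 with the library set as covariate, 3 with library size only and 1 within the upper set. Relative to Ptprc, the 1 call at day 14 became 0 at 3-fold and 0 within the upper set. The 4 of the vehicle comparison became 1 at 3-fold, 1 against the panel and 2 by exact permutation at an unadjusted p under 0.05. For fibroblasts against WT, 0 became 2 with the covariate and 3 within the upper set; between days, 0 became 1 with DESeq2 in Col5a1CKO, and 2 in each genotype by exact permutation at an unadjusted p under 0.05. Adjusted over the 72 ratio tests, the smallest exact p was 0.15, so 0 of these passed. DESeq2 called 684 genes higher and 713 lower at day 19, where edgeR called 3 and 0, and 0 members by either.

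Whether the replicate letters pair wounds could not be told. Same-letter deviations correlated at -0.46 to 0.57 for day 14 and -0.43 to -0.32 for day 19. For fibroblasts they correlated at -0.20 to 0.41 against Col5a1CKO and 0.018 to 0.39 against WT. Wounds of different letters were not correlated for reference. The deviations also carry the library set, and the lowest day 14 value, of letter e, joined a lower-set with an upper-set library. With the replicate block, 4 members were called at day 14 and 1 for fibroblasts against Col5a1CKO, and relative to Ptprc 1 and 2 for fibroblasts against Col5a1CKO and WT. Of all genes, 757 were called higher and 567 lower at day 14, and 1415 and 1125 of 15162 for fibroblasts against Col5a1CKO. Relative to Ptprc these were 839 and 5, and 270 and 5228 for fibroblasts against WT. For fibroblasts the block used only wounds a to c of each group. Those fibroblast wounds are of the upper library set and those controls of the lower, so treatment and set cannot be told apart in it. Under the block the log2 change of Itgal at day 19 was 0.20, and the ratio changes for fibroblasts against WT were 0.59 for Icam1, 0.048 for Itga4 and 1.23 for Itgb7, each of the other sign without it.

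Leaving out 1 wound, 4 to 7 members were called at day 14 (4 without Col5a1CKO a or f or WT g), 2 to 8 for cilengitide against Col5a1CKO vehicle (2 without cilengitide 1 or 3, 3 without cilengitide 2, 5 without vehicle 3), 0 to 6 against WT vehicle (0 without cilengitide 2, 3 or 4 or WT 3, 2 without WT 4), 4 to 9 for fibroblasts against WT (4 without b or c, 5 without a), and 0 to 3 for WT between days (3 without day 19 b). Relative to Ptprc the ranges were 1 to 2 at day 14 (2 without Col5a1CKO g, WT a or WT c), 0 to 3 for cilengitide against Col5a1CKO vehicle (2 without cilengitide 4, 3 without vehicle 2), 0 to 1 against WT vehicle (1 without cilengitide 2) and 0 to 1 for Col5a1CKO between days (1 without day 14 g or day 19 a or b).

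Other log2 changes that turned sign were these. With the covariate and within the upper set, fibroblasts against Col5a1CKO gave 0.22 and 0.27 for Ptprc and 0.11 and 0.17 for Itgam, and ratio changes of -0.15 and -0.15 for Itga4, -0.017 and -0.017 for Itgal, -0.11 and -0.11 for Itgax, and -0.20 and -0.20 for Itgb7. Col5a1CKO between days gave ratio changes of -0.20 and -0.20 for Itgal, -0.12 and -0.12 for Itgb2, -0.36 and -0.36 for Itgb7, and -1.18 and -1.18 for Selplg; WT gave -0.34 and -0.34 for Itgb7 and -0.31 and -0.31 for Selplg. Within the upper set at day 14 the ratio changes were 0.14 for Itgal, 0.18 for Itgb2 and 0.14 for Selplg. Against the panel they were 0.033 for Itgal and 0.15 for Itgb2 at day 14, 0.24 for Itgam at day 19, -0.10 for Itga4 with fibroblasts against Col5a1CKO, and -0.13 for Icam1 and -0.042 for Itgax in the difference between days. The mean log2 ratio of the permutation test was 0.14 for Itgb7 with fibroblasts against WT.

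Leaving out 1 wound, levels at day 19 ranged from -0.31 to 0.27 for Icam1, -0.20 to 1.06 for Itga4, -0.57 to 0.81 for Itgal, -0.092 to 1.16 for Itgam, -0.13 to 1.11 for Ptprc and -0.48 to 0.37 for Selplg. Between days, Col5a1CKO levels ranged from -0.37 to 0.079 for Icam1 and -0.81 to 0.043 for Itgal, and WT levels from -0.45 to 0.83 for Ptprc. Ratio changes at day 19 ranged from -1.46 to 0.28 for Icam1, -0.16 to 0.98 for Itga4 and -0.073 to 0.027 for Itgam. In the difference between days they ranged from -0.43 to 1.31 for Icam1, -0.47 to 0.79 for Itgax, -0.026 to 0.39 for Itgb7 and -0.61 to 0.034 for Selplg. They ranged from -0.26 to 0.063 for Itga4 with fibroblasts against WT, -0.10 to 0.033 for Itgam against Col5a1CKO, and for Itgb2 with cilengitide from -0.14 to 0.041 against Col5a1CKO vehicle and -0.041 to 0.24 against WT vehicle.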

Other observations

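At day 19, Selp, the P-selectin of endothelium and platelets, ran from 12.002 to 26.5 CPM in the 3 WT wounds, against 100.2 to 167 in the 3 Col5a1CKO wounds, without overlap, and 16.4% of all genes tested were likewise higher in all Col5a1CKO wounds than in all WT wounds. Its difference of 3.01 ± 0.41 (log2, SE) did not pass edgeR's quasi-likelihood test (adjusted p = 0.11). Sele ran from 1.63 to 4.29 CPM and from 20.6 to 35.3, with a difference of 3.20 ± 0.42 (adjusted p = 0.11). The 2 genes were chosen after their values were seen.

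In the same wounds, 4 endothelial markers had sums of 118 to 286 CPM for WT, against 323 to 492 for Col5a1CKO, and their part in these differences was not tested.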
